A study of Homo sapiens with 4 samples.

Results

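The peaks of N6-methyladenosine (m6A) described here came from meRIP-seq of OE-19, an established cell line of adenocarcinoma of the esophagogastric junction, and lay in the coding sequence (CDS) of last exons, well upstream of the stop codon. In meRIP-seq, RNA fragments that carry m6A are enriched with an antibody and sequenced, and each stretch with more reads than background is called as a peak with a summit. The series held 4 samples from 1 unmodified cell line, namely 2 replicates of the m6A IP and 2 of the input RNA. A list of peaks came with each of the IP samples, and input lists were not analysed here. The lists hold no expression values, so the cell line was not checked against its markers. A peak was a member if its summit fell in CDS in the last exon of the gene's longest-CDS transcript, more than 200 nt before the last coding base, on a transcript with 2 or more exons. The rule used position alone. It selected 1559 of 24607 peaks in replicate 1 (6.34%), in 1253 genes, and 1380 of 19318 peaks in replicate 2 (7.14%), in 1128 genes.

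m6A is written co-transcriptionally, mostly in the DRACH context (D stands for any base but C, R for a purine and H for any base but G), by the METTL3-METTL14 complex. In mRNA it is best known from the region around the stop codon and from long internal exons. The exon junction complex, which is deposited shortly upstream of each splice junction, is known to keep the writer away from nearby RNA, which leaves long last exons and long internal exons as the main sites. A last exon has only 1 junction, at its 5′ side, so its coding part can be measured from that junction and from the end of the CDS.

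The rule fixes a distance of more than 200 nt from the CDS end and sets none from the junction. The distance from the last junction, counted with the first base of the exon as 1, was 413 nt at the median of replicate 1, with quartiles of 227.5 and 883 nt, and 451.5 nt at that of replicate 2, with 253 and 945 nt. The distance to the last coding base was 598 nt at the median of replicate 1, with quartiles of 337 and 1096 nt, and 591.5 nt at that of replicate 2, with 334 and 1104 nt. The last exons were long, with a median length of 3076 nt and a median coding part of 1200 nt in replicate 1, against 3217 and 1209 nt in replicate 2. For 20.3% of members in replicate 1 and 21.7% in replicate 2, the whole CDS of the transcript lay in the last exon. At the edge of the rule, 154 members of replicate 1 lay within 50 nt inside the limit of 200 nt, with a median fold enrichment of 6.96, and 258 last-exon CDS summits within 50 nt outside it had 7.27. The same counts in replicate 2 were 150 members at 5.90 and 224 outside summits at 5.82.

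The sequences under the strongest members are given as examples and need not be typical of the members. The replicate 1 summit with 50 bases on each side is given on the strand of the gene (hg38) for the first 6 genes ranked by fold enrichment in both lists, whether or not they held GGAC, the core motif named in the study, and GGAC is in capitals. The windows are chr19:5866792-5866892 (minus strand) for FUT5, chr10:46462385-46462485 (minus) for NPY4R, chr5:43174680-43174780 (plus) for ZNF131, chr20:41405191-41405291 (minus) for CHD6, chr17:42040551-42040651 (minus) for C17orf113 and chr5:56923345-56923445 (minus) for MIER3.
FUT5: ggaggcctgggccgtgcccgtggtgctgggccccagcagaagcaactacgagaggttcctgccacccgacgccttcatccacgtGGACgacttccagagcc
NPY4R: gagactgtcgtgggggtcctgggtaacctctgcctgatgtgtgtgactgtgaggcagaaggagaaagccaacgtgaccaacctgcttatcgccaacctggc
ZNF131: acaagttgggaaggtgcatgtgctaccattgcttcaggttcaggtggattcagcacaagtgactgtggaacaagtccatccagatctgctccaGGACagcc
CHD6: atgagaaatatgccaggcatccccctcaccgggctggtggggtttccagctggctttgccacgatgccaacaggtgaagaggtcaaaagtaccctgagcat
C17orf113: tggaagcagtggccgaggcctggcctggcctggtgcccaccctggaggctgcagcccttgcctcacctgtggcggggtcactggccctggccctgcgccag
MIER3: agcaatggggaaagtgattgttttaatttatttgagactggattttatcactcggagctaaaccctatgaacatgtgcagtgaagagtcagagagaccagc

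Only FUT5 and ZNF131 held GGAC in these windows, at 36 and 45 nt downstream of the summit. The windows of NPY4R and MIER3 each held 4 DRACH pentamers, ZNF131 held 3, and none was in the windows of FUT5, CHD6 and C17orf113. Over all members, the same window held at least 1 DRACH pentamer for 88.8% in replicate 1 and 90.1% in replicate 2. No share of DRACH outside peaks was set beside these. The GC content ran from 40.6% in MIER3 to 73.3% in C17orf113. Windows are also given for 2 C2H2 zinc finger genes, the largest family among the members, at chrX:47449158-47449258 (minus strand) for ZNF41 and chr3:40486878-40486978 (plus) for ZNF619.
ZNF41: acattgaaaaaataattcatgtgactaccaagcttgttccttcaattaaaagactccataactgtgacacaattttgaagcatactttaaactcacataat
ZNF619: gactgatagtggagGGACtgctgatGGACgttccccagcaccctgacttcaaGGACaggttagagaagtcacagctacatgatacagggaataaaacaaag

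ZNF619 held GGAC 3 times, with the adenines 34 and 23 nt upstream and 4 nt downstream of the summit. ZNF41 held no GGAC at a GC content of 29.7%, and 5 DRACH pentamers, the nearest with its adenine 2 nt from the summit. A match is a description of the letters and does not place the methylated base.

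Next, the position of the members was set against the sequence in which they could have fallen. This was the last-exon CDS over 200 nt before the CDS end, in genes with at least 1 summit in the transcript, which came to 1847 kb in 3399 genes for replicate 1 and 1716 kb in 2989 genes for replicate 2. A member counted as such a summit. Members were rare next to the last junction. The first 100 nt of the last exon held 14.1% of the available bases but only 33 members (2.12%) in replicate 1, and 13.6% of the bases but 20 members (1.45%) in replicate 2. The density was 0.126 summits per kb within 100 nt and 0.962 per kb farther away in replicate 1, which was 7.61-fold higher farther away (ratio of near to far 0.131, 95% interval 0.0901 to 0.185). In replicate 2 it was 0.0859 against 0.917 per kb, 10.7-fold higher farther away (ratio 0.0936, interval 0.0570 to 0.145). Intervals cover counting error only.

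The change was steep. Ranges of distance leave out their lower bound. In replicate 1 the density rose from 0.0354 per kb in the first 50 nt and 0.233 at 50 to 100 nt to 1.40 at 100 to 200 nt, and in replicate 2 from 0.0320 and 0.148 to 1.20. It was highest between 100 and 400 nt, at 1.40 (interval 1.28 to 1.54) for 200 to 400 nt in replicate 1 and 1.31 (1.19 to 1.45) in replicate 2. Beyond 1600 nt it had fallen to 0.582 (0.495 to 0.680) and 0.585 (0.495 to 0.686). These intervals do not overlap, so from 200 to 400 nt onwards the density fell towards the distant parts of the stretch by more than the counting error.

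**Figure D1:**
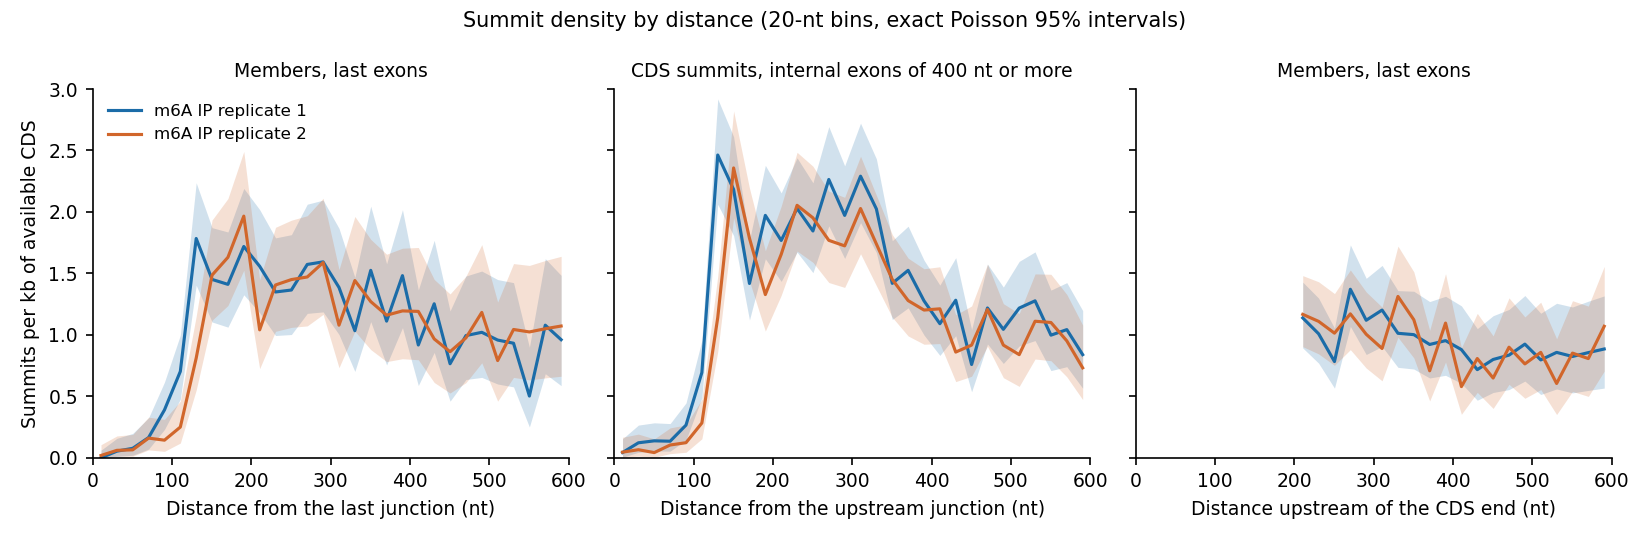
Summits per kb of available CDS (y axis) in 20-nt bins of distance in nt (x axis), for members from the last junction (left), CDS summits of internal exons of 400 nt or more from their upstream junction (middle) and members from the CDS end (right). Lines are the 2 replicates and bands exact Poisson 95% intervals. Both junction panels stay low over the first 100 nt and rise steeply after it, whereas the density falls slowly with distance from the CDS end, starting at the 200 nt set by the rule.

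The low density next to a junction was not particular to these exons. In internal exons of 400 nt or more, CDS summits had a density of 0.144 per kb within 100 nt of the upstream junction and 1.13 farther away in replicate 1, and 0.0775 against 1.02 in replicate 2. At the downstream junction of the same exons replicate 1 had 0.112 per kb near and 1.14 far, and replicate 2 had 0.0778 and 1.03. Last exons in which no member could lie had it as well. In last exons whose CDS ended within 100 nt of the junction, all summits together had a density of 0.369 per kb in the first 100 nt and 2.61 per kb at 100 to 200 nt in replicate 1, and 0.265 against 2.31 in replicate 2. Internal exons under 400 nt, with 913 summits in replicate 1 and 210 in replicate 2 within 100 nt of the upstream junction, had 0.146 per kb near it and 0.558 farther away in replicate 1, and 0.0427 and 0.229 in replicate 2. How the peak caller handled spliced reads and fragment length was not given, and its part in the low density was not tested.

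The members near the junction were also weaker. The 33 of replicate 1 had a median fold enrichment of 4.27 and the 20 of replicate 2 had 4.10, against 7.63 and 5.95 at 200 to 400 nt. Of the 33, 13 (39.4%, 95% Wilson interval 24.7% to 56.3%) overlapped a peak of replicate 2, against 84.9% at 200 to 400 nt, whereas 19 of the 20 in replicate 2 overlapped a peak of replicate 1. The Kelch-repeat gene KBTBD8 shows how a summit can move across this limit. Its peak had the summit 72 nt from the junction in replicate 1, at a fold enrichment of 6.42, and 220 nt from it in replicate 2, at 13.7.

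Over the distances that the rule leaves, the density varied less with distance to the CDS end. The rule removes the 200 nt next to the CDS end and keeps those next to the junction. The strengths of the 2 trends are therefore not comparable. The density was 1.06 per kb at 200 to 400 nt before the CDS end in replicate 1 (interval 0.967 to 1.15) and 1.07 in replicate 2 (0.973 to 1.17). It was 0.721 (0.631 to 0.822) and 0.668 (0.579 to 0.768) beyond 1600 nt. With both distances crossed, the density at 100 to 400 nt from the junction stayed between 1.00 and 1.76 per kb in every bin of distance to the CDS end and both replicates. In the bins beyond 800 nt from the junction it was 1.02 or lower, and the highest values were those nearest the CDS end. A summit over 1600 nt from the stop codon was thus met as often as 1.59 per kb (36 members) in replicate 1 and 1.16 per kb (25 members) in replicate 2 where the junction was 100 to 200 nt away.

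**Figure D2:**
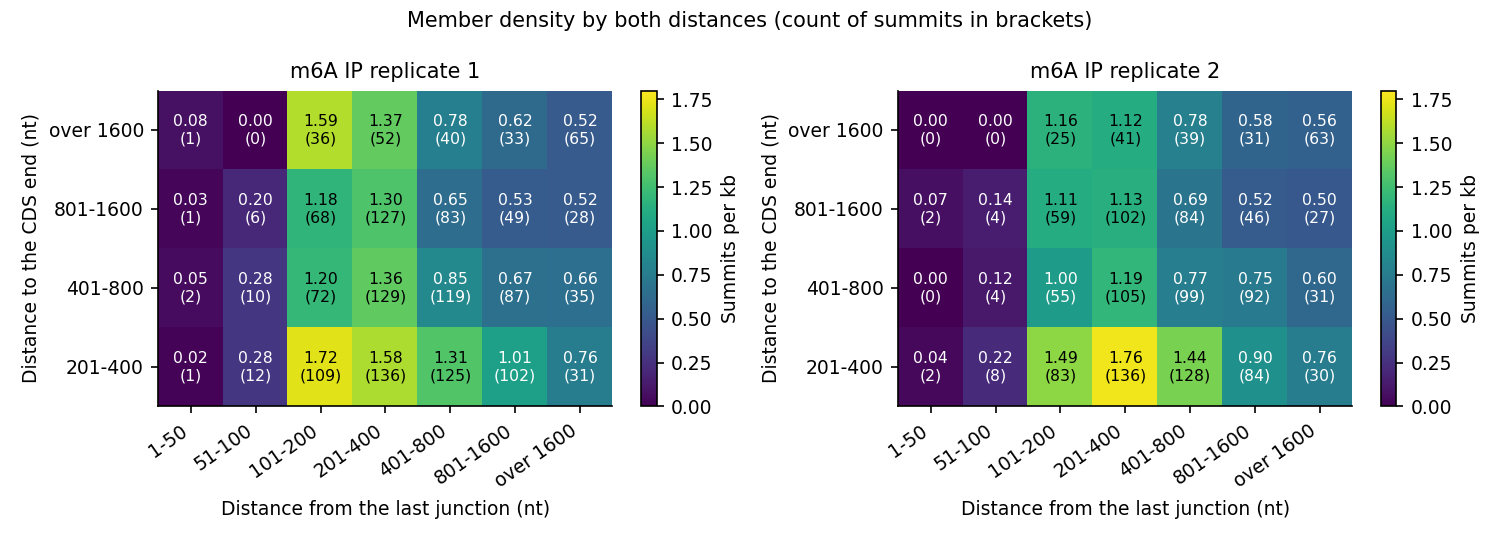
Density of member summits per kb (colour and number) by distance from the last junction (x axis, nt) and distance to the CDS end (y axis, nt), 1 panel per replicate, with the number of summits in brackets. The 2 left columns, within 100 nt of the junction, hold at most 0.28 per kb in replicate 1 and 0.22 in replicate 2, and the densest cell of each replicate, with 1.72 and 1.76, is at 100 to 400 nt in the bottom row.

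Both distances were then compared directly. In replicate 1, 606 of 1559 members (38.9%, interval 36.5% to 41.3%) were nearer the CDS end than the junction, and 37.7% of the available bases were. In replicate 2 it was 573 of 1380 (41.5%, 39.0% to 44.1%), against 38.1% of the bases, which lies below that interval. Taken over both lists, 40.1% were nearer the CDS end. Among members over 200 nt from the junction, where the rule leaves both sides alike, the share was 48.8% (46.1% to 51.6%) in replicate 1 and 50.4% (47.5% to 53.3%) in replicate 2, and 50.3% and 50.4% of the bases of their own stretches were nearer the CDS end. The share depends on the distance in the rule and on the use of summits. It was 53.7% over both lists with peak midpoints in place of summits. It was 52.5% when members started 100 nt before the CDS end and 28.0% when they started 400 nt before it.

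The longer the stretch, the more genes had a member. A longer stretch has more bases in which a summit can fall, and the summit that admits a gene can be the member itself. The rise is therefore in part given by the counting, and no expected share was set beside it. Of genes with a summit and a stretch of 1 to 200 nt, 2.75% had a member in replicate 1 and 2.35% in replicate 2. The share rose over 35.3% and 31.5% at 200 to 400 nt to 82.8% and 80.9% at 800 to 1600 nt, and to 90.6% and 89.8% beyond 1600 nt. Of all 7036 genes with such a stretch, 991 had a member in both lists (14.1%) and 1390 in either list. Genes without any peak may be unexpressed, which the lists do not tell apart from unmethylated. A single member per gene was the usual case, in 1048 genes of replicate 1 and 968 of replicate 2, while 23 and 15 genes had 4 or more.

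Many members reached the stop codon although their summits did not. The peak covered the CDS end in 33.3% of members in replicate 1 and 31.9% in replicate 2, and it ran past the last junction into the intron in 18.4% and 13.7%. Of the member genes, 15.9% in replicate 1 and 12.9% in replicate 2 had a separate peak with its summit within 200 nt of the CDS end. With peaks that covered the CDS end included, this was 57.3% and 52.0%. No other peak lay on the transcript in 37.6% of member genes in replicate 1 and 49.9% in replicate 2. A call gives 1 summit per peak, so a wide peak can hold several sites.

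The members were strong and wide. Their fold enrichment, the ratio of the signal at the summit to the caller's background, was 7.08 at the median of replicate 1, with quartiles of 5.01 and 9.97, and 5.92 at that of replicate 2, with 4.33 and 7.93. All exonic peaks had medians of 5.30 and 4.82. Long internal exons had 5.92 and 4.91, last-exon summits within 200 nt of the CDS end had 5.68 and 4.78, and CDS summits of internal exons under 400 nt had 3.58 and 3.35. Members had a median width of 559 bp in replicate 1 and 572.5 bp in replicate 2, whereas the median was 467 and 433 bp in long internal exons, 368 and 358.5 bp at the stop codon, and 224 and 242 bp in short internal exons. Fold enrichment had little steady trend with position among the members. Spearman's rho with the distance from the junction was 0.04 in replicate 1 and 0.02 in replicate 2. With the distance to the CDS end it was −0.05 in both. A rise followed by a fall can be missed by this measure. In replicate 1 the median was 4.3 within 100 nt of the junction, 7.7 at 400 to 800 nt and 6.2 beyond 1600 nt. In replicate 2 it was 4.1, 6.3 and 5.5. At 200 to 400 nt from the CDS end it was 7.3 in replicate 1 and 5.9 in replicate 2. Beyond 1600 nt from that end it was 5.9 and 5.3. These are descriptions over 1559 and 1380 peaks of 1 library each.

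An overlap of at least 1 bp with a peak of the other list was found for 1275 members of replicate 1 (81.8%, interval 79.8% to 83.6%) and 1339 of replicate 2 (97.0%, 96.0% to 97.8%). Over all exonic peaks the shares were 60.2% and 95%. In replicate 1 the share was higher than in short internal exons (29.1%, adjusted p = 2.13e-245, two-sided Fisher's exact test, 12 tests adjusted together by Benjamini-Hochberg) and at the stop codon (73.9%, adjusted p = 1.8e-09). It did not pass the test against long internal exons (80.6%, adjusted p = 0.428, Fisher's exact test). In replicate 2 it was higher than in short internal exons (88.5%, adjusted p = 1.79e-13), but not against long internal exons (96.7%, adjusted p = 0.633) or the stop codon (97.4%, adjusted p = 0.595), in the same exact test. Peaks are not replicates of a condition, so these tests cover the counting error within each library.

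Except against short internal exons in replicate 1, the differences that passed the test depended on the measure of overlap. With summits within 100 bp as the measure, 64.1% of members in replicate 1 and 73.1% in replicate 2 were found again. The difference from short internal exons in replicate 1 was then 37.8 points (adjusted p = 1.14e-124, Fisher's exact test). The difference in replicate 2 then turned to 9.87 points below short internal exons (adjusted p = 9.88e-07, Fisher's exact test) and was 13.96 points below the stop codon (adjusted p = 1.15e-26). In replicate 1 the sign against the stop codon turned too (−2.42 points, adjusted p = 0.117, Fisher's exact test). Members were wider than the peaks of each other class, and the part of width in the overlap was not tested.

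Of the members, 74.7% in replicate 1 and 86.9% in replicate 2 overlapped a member of the same gene in the other list. For 6.48% and 9.20% the overlapping summit lay within 200 nt of the CDS end of the same gene, so these peaks changed class between the replicates. There were 1129 pairs of members that were each other's largest overlap, in 965 genes. Their summits were 28 bp apart in the median, and log2 fold enrichment correlated between the lists with a Pearson's r of 0.669 and a Spearman's rho of 0.621 across pairs, which are not independent replicates. Over all 11741 exonic pairs r was 0.698. Replicate 1 was higher in 867 of the 1129 pairs (76.8%), by 0.39 on the log2 scale at the median, and over all exonic pairs the median was 0.43.

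**Figure D3:**
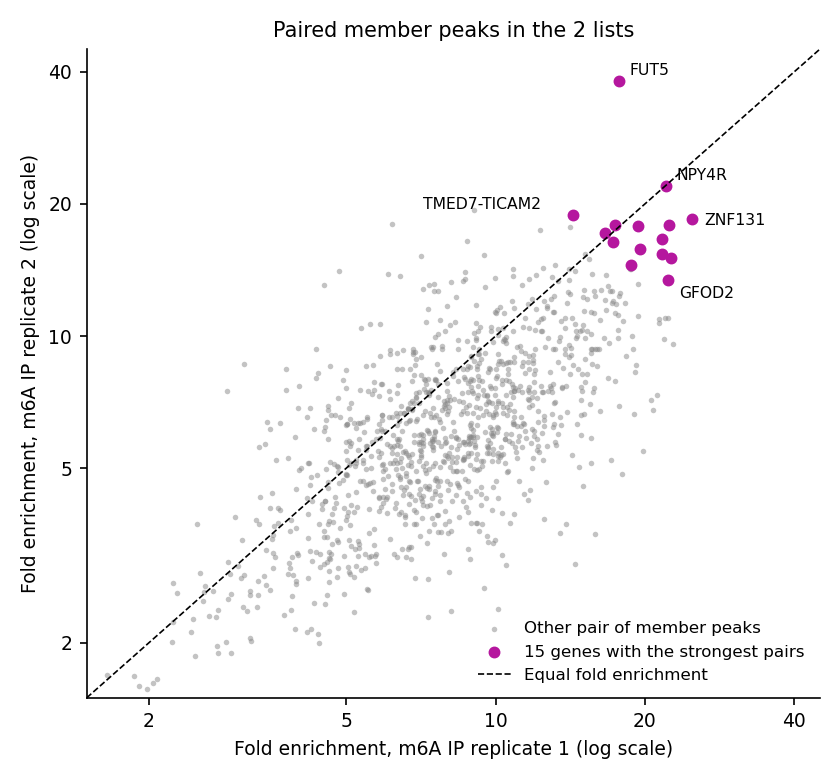
Fold enrichment of paired member peaks in m6A IP replicate 1 (x axis) and replicate 2 (y axis), both on log scales, with the 15 strongest genes in colour and the line of equal values dashed. Most of the 1129 pairs lie below the line, as replicate 1 was higher in 867, and FUT5 lies farthest above it among the coloured genes, at 17.8 and 38.1.

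GGAC lay within 50 nt of the summit for 681 members of replicate 1 (43.7%, interval 41.2% to 46.2%) and 666 of replicate 2 (48.3%, 45.6% to 50.9%). Of all windows of that length in the same stretches outside every peak, 19.6% and 19.7% held it. Pooled over all these genes, the median GC content of the windows was 44.6%, against 54.5% and 53.5% at the members. Among all summits in the transcripts used, the share was 50.6% for replicate 1 and 52.2% for replicate 2, and the members were below the other summits. In replicate 1 they were lower than long internal exons (49.7%, adjusted p = 0.000212), short internal exons (50.7%, adjusted p = 3.31e-05) and the stop codon (54.9%, adjusted p = 6.06e-13, Fisher's exact test as above). In replicate 2 they were lower than the stop codon (56.0%, adjusted p = 6.62e-06), and the test was not passed against long (50.6%, adjusted p = 0.238) or short internal exons (51.3%, adjusted p = 0.265) in Fisher's exact test.

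The zinc finger members had the fewest GGAC. C2H2 zinc finger genes code for DNA-binding proteins with arrays of similar fingers in the last exon. They were taken by symbol (ZNF, ZSCAN, ZKSCAN or ZFP with a number) wherever they are set apart here. Zinc finger genes with other symbols, such as the ZBTB family with 29 and 30 members, stayed among the others. The genes taken gave 347 members of replicate 1 (22.3%) and 295 of replicate 2 (21.4%), in 250 and 223 genes. Of these members, 43.5% and 41.0% were on chromosome 19. GGAC was found at 34.3% (29.5% to 39.4%) and 36.6% (31.3% to 42.2%) of them. At the other members it was 46.4% (43.6% to 49.2%) and 51.4% (48.5% to 54.4%). Median GC was 44.6% and 45.5% at zinc finger members, against 56.4% and 55.5%. In windows outside peaks it was 41.6% in both replicates for zinc finger genes, and 50.5% and 49.5% for the others. The GC gap between members and windows was thus smaller within each group than in the pooled values. Outside peaks GGAC was in 12.5% and 13.7% of windows of the zinc finger genes, and in 24.4% and 23.4% of the others. Without zinc finger genes in any class, the difference from the internal exons did not pass the test in replicate 1 against the long ones (3.61 points lower, adjusted p = 0.0539, Fisher's exact test) and still passed it against the short ones (−4.00 points, adjusted p = 0.0415), and in replicate 2 it changed sign against long and short ones (0.80 and 0.43 points higher, adjusted p = 0.721 and 0.884). The deficit against the stop codon passed the test in both replicates in every alternative that was run.

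**Figure D4:**
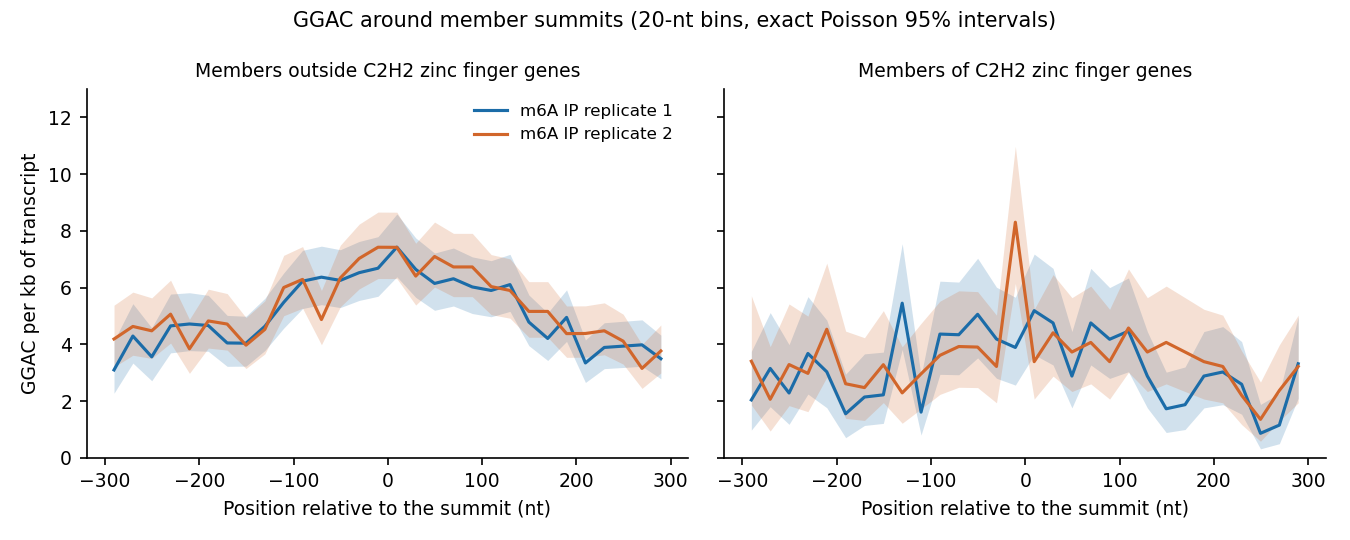
GGAC per kb of transcript (y axis) in 20-nt bins of position relative to the member summit (x axis, nt), for members outside C2H2 zinc finger genes (left) and in them (right), with these genes taken by symbol. Lines are the 2 replicates and bands exact Poisson 95% intervals. On the left GGAC is densest around the summit in both replicates, and on the right, from fewer members, it is uneven, with 8.31 per kb in the 20 nt before the summit in replicate 2 and 3.89 in replicate 1.

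GGAC in coding sequence can fall in 3 reading frames. In the stretches of member genes of replicate 1, 61.6% of 4918 GGAC inside peaks of either list were read with a GAC codon (aspartate), against 46.3% of 1041 outside every peak. Without zinc finger genes it was 64.7% of 4215 against 51.3% of 799. Glycine codons (GGA) took 19.6% inside and 30.0% outside. In the member genes of replicate 2 without zinc finger genes, the aspartate frame had 64.7% of 4156 inside and 50.6% of 656 outside. Peaks of either list were used both times and 991 member genes were in both lists. The values for replicate 2 therefore largely count the same GGAC again. GC content also differed inside and outside peaks, and its part in the frames was not tested.

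Zinc finger members lay farther from both ends at the median. Their median distance to the CDS end was 943 nt in replicate 1 and 923 nt in replicate 2, against 512 and 520 nt for the others. The distance from the junction was 488 and 504 nt against 396.5 and 438 nt. Zinc finger genes also had longer stretches, with a median of 1168 nt against 263 nt over all genes. The part of this length in the distances was not tested. Per kb of available CDS the density of zinc finger members was 0.840 (0.754 to 0.933) in replicate 1 and 0.768 (0.683 to 0.861) in replicate 2, and that of the others was 0.845 and 0.815. At 100 to 200 nt from the junction the density was 1.79 per kb (1.35 to 2.33) in zinc finger genes of replicate 1, and 0.694 at 400 to 800 nt. In replicate 2 it was 1.53 (1.11 to 2.06) and 0.789. Towards the CDS end it did not rise, with 0.737 per kb at 200 to 400 nt and 1.02 beyond 1600 nt in replicate 1, and 0.769 and 0.802 in replicate 2. In the other genes it rose from 0.641 beyond 1600 nt to 1.11 at 200 to 400 nt in replicate 1, and from 0.631 to 1.11 in replicate 2. Fingers of different genes are alike in sequence, so reads of these peaks may be shared between genes.

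The next counts are among genes with a stretch and a summit, and that summit can be the member itself, which raises the shares. Of these genes, 1390 of 3443 (40.4%) had a member in either list and 991 (28.8%) in both. For C2H2 zinc finger genes it was 270 (80.4%) and 203 (60.4%) of 336, and for the ZBTB family of BTB-zinc finger repressors 24 and 19 of 36. Of the chromatin regulators listed, 10 and 8 of 13 had a member, and of the Wnt and Notch genes 10 and 8 of 13. Deubiquitinases of the USP family had 5 of 8 in both lists. Of 30 TRIM ubiquitin ligases 12 had a member in either list and 10 in both, and of 49 solute carriers 14 and 9. Protocadherins had none in 16 genes, SOX factors none in 3, and HOX factors 3 of 20 in either list and none in both. Of 8 cell cycle genes and oncogenes, only ERBB3 had a member, in replicate 1 alone. The lists differ in length, with a median stretch of 1168 nt in C2H2 zinc finger genes, 1530 nt in the chromatin regulators, 72.5 nt in HOX genes and 107 nt in protocadherins, against 263 nt over all genes, so the counts are not comparable apart from length.

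The strongest pair of members was that of FUT5, a fucosyltransferase of Lewis antigen synthesis, with 17.8-fold enrichment in replicate 1, where the peak spanned 5866664 to 5867192 of chromosome 19, and 38.1-fold in replicate 2. Its summit lay 896 nt from the junction and 238 nt from the CDS end in replicate 1, in an exon shared with the gene ENSG00000267740. NPY4R, a receptor for pancreatic polypeptide, had 22.1 and 21.9, and it has a near-identical copy in the genome with which reads can be shared. ZNF131, a BTB-zinc finger factor, had 24.8 and 18.5, with summits 284 and 282 nt from the junction. The chromatin remodeller CHD6 had 22.4 and 17.9 at 249 and 199 nt, in exon 37 of its transcript. The others of the 15 strongest were C17orf113, MIER3, HIVEP2, ZNF41, ZSWIM6, PLEKHO2, GFOD2, TBC1D9, ZNF619, the cytochrome P450 gene CYP1B1 (18.8 and 14.5) and the read-through gene TMED7-TICAM2, whose summit lies in an exon of the Toll-like receptor adaptor TICAM2 (14.3 and 18.9). The 15 genes had summits from 123 nt (ZNF619) to 896 nt (FUT5) from the junction in replicate 1.

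Chromatin regulators held members at moderate strength. ARID1B, a subunit of the BAF remodelling complex, had 10.9 in replicate 1 and 11.6 in replicate 2, with summits 590 and 436 nt from the CDS end. Its paralog ARID1A had 5.75 and 5.83 at 410 and 503 nt. ASXL1, a partner of the histone H2A deubiquitinase BAP1, had 2 members in each list, at 6.65 and 6.59 in replicate 1 and 6.82 and 4.88 in replicate 2, with summits 469 and 2260 nt from the junction in replicate 1 and 496 and 2256 nt in replicate 2. ASXL2 had 5.34 and 7.52. The H3K36 methyltransferase NSD1 had 6.35 and 7.73, the 5-methylcytosine dioxygenase TET2 had 8.65 and 5.25, and TET3 had 6.59 and 5.42. ADNP had 2 members in each list, at 3.86 and 3.56 in replicate 1 and 3.61 and 3.52 in replicate 2. Of the acetyltransferases, EP300 had a member in replicate 1 alone (5.11) and CREBBP in replicate 2 alone (5.73).

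Wnt and Notch genes included members far from the stop codon. APC, the scaffold of the β-catenin destruction complex, had 4 members in each list. In replicate 1 the summits lay 225, 2925, 4080 and 6145 nt from the junction, with fold enrichments of 10.9, 4.32, 3.35 and 7.65. In replicate 2 they lay at 181, 2930, 4113 and 6028 nt with 6.54, 2.46, 4.29 and 7.79, so the outer peaks were the stronger in both lists. AMER1, which binds APC, had 3 members in each list, of which the strongest had 12.5 in replicate 1 and 3.84 in replicate 2. NOTCH1 had 8.38 and 5.52 with summits 413 and 403 nt from the junction, and NOTCH3 had 2.76 and 2.38. The members of NOTCH2, at 3.52 and 2.62, did not overlap. The Notch co-activators MAML1 (8.68 and 4.72) and MAML3 (11.04 and 6.23) each had a pair, as had the β-catenin co-activator BCL9L (7.62 and 4.68). APC2 (4.57) and BCL9 (7.80) had a member in replicate 1 alone.

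The genes with the most members had very long last exons. AHNAK, a giant scaffold protein coded almost wholly in 1 exon, had 10 members in replicate 1 and 15 in replicate 2 over 17328 coding nt. FLG (filaggrin) had 12 and 10 over 12045 nt, ZNF469 had 11 and 10 over 11859 nt, ZNF292 had 7 and 6 over 7149 nt, and EPPK1 (epiplakin) had 6 and 7 over 15264 nt. In FLG neighbouring summits were 962 nt apart in the median in replicate 1 (from 441 to 1115) and 968 nt in replicate 2 (from 479 to 2919). FLG is coded as tandem repeats, and AHNAK and EPPK1 are repetitive too, so reads may map to several of their repeats and the count of members is uncertain. In the 44 genes of replicate 1 with 3 or more members, 145 gaps between neighbouring summits had a median of 914 nt and a lowest value of 198 nt, and in the 40 genes of replicate 2, 132 gaps had a median of 913 nt and a lowest value of 377 nt. The member farthest from the CDS end that was paired was in AHNAK, 17051 nt upstream in replicate 1 (5.45) and 17193 nt in replicate 2 (3.20), with summits 277 and 135 nt from the junction. AHNAK2 and ZNF469 had their farthest pair 372 to 594 nt from the junction, whereas that of EPPK1 lay 2883 and 2690 nt from it.

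**Figure D5:**
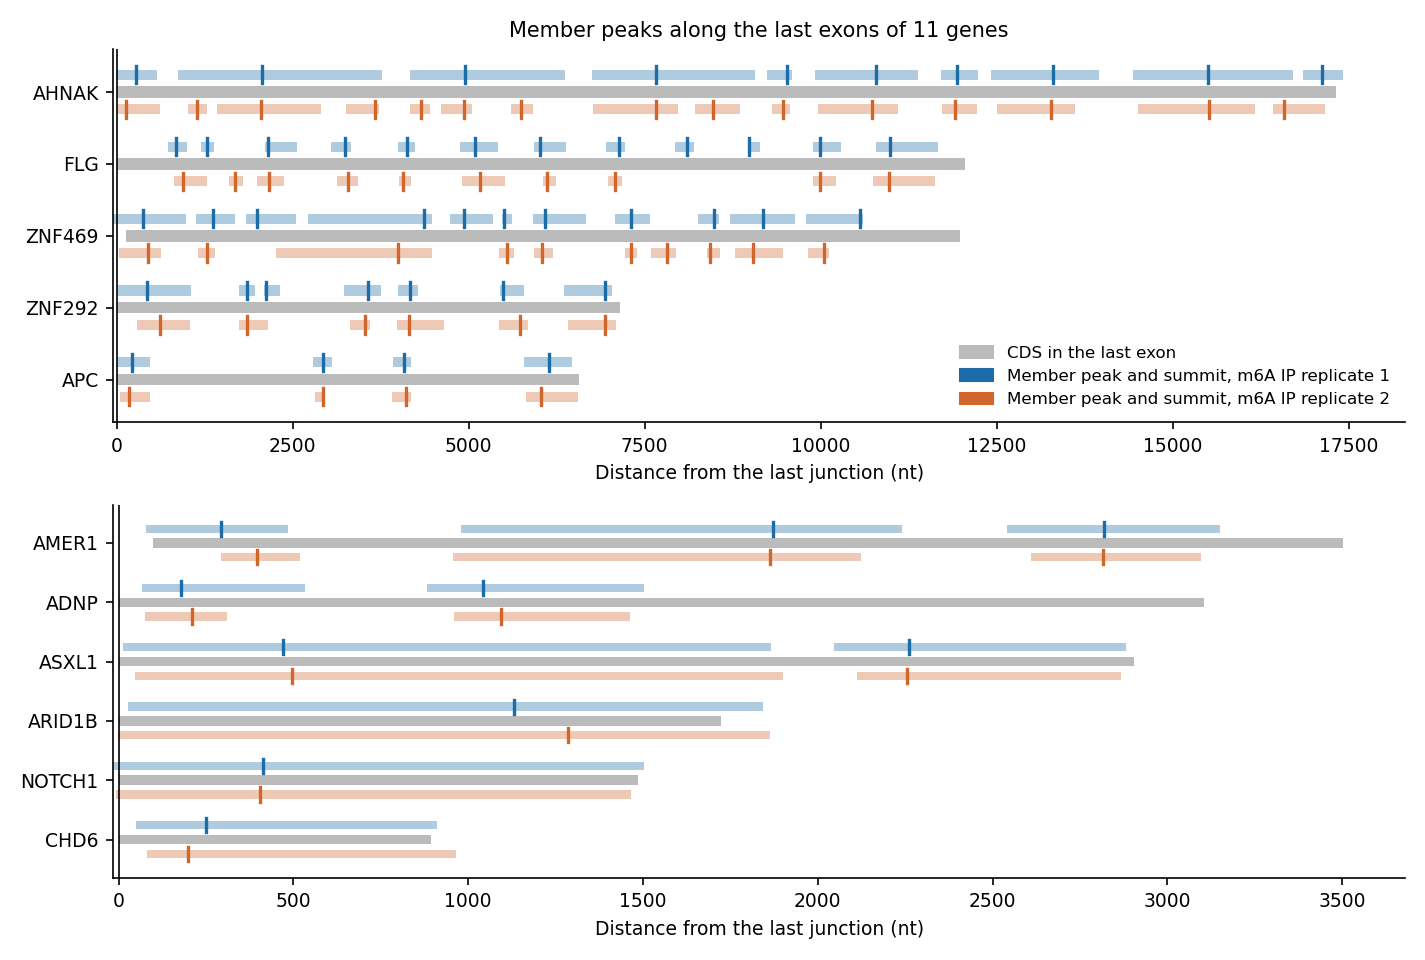
Member peaks (pale bars) and summits (ticks) of both replicates along the last exons of 11 genes, by distance from the last junction (x axis, nt), with the CDS of the last exon in grey, and long exons in the upper panel on their own scale. Peaks of the replicates lie over each other in most places, as for the 4 peaks of APC at 225 to 6145 nt, and FLG has 12 peaks in replicate 1 and 10 in replicate 2.

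The family lists added pairs in last exons shorter than those of the genes with the most members. ZBTB5 had 17.8 in replicate 1 and 12.5 in replicate 2, with the summit 144 nt from the junction in both lists, and ZBTB4 had 14.04 and 13.5. TRIM59 had 14.1 and 14.2, in an exon shared with ENSG00000248710. The deubiquitinases USP31 (14.98 and 12.3) and USP43 (8.66 and 13.5) had summits that differed by 4 nt and 1 nt between the lists. FOXA1 and FOXA3, pioneer factors of endodermal tissues, had 6.21 and 5.14, and 7.45 and 5.83. The leucine-rich repeat genes LRRC3 and FLRT3 had 16.6 and 9.88, and 12.5 and 11. The sulfate transporter SLC26A1 had 17.6 and 11.2, in a peak from 987063 to 994023 on chromosome 4 in replicate 1 that was far wider than its last exon of 2706 nt.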

How the data were processed

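The m6A IP peak lists of OE-19 cells were analysed. The study's methods describe an IP of fragmented, DNase-treated total RNA, and the labels describe cells that were UV-fixed and lysed. The methods name TopHat2 and MACS2 with default settings on hg38, and the submitters' processing notes name fastp, HISAT2 and MACS2, with no versions. Whether input served as the control is not stated. The authors deposited 1 list per IP sample with each summit's fold enrichment (the ratio to the caller's background), −log10 p and −log10 q, the summit offset and a score, which was not used. The lists hold no read numbers or strand, so depth is unknown and a peak was given the strand of its gene. Replicates are separate samples in the labels, with nothing said of separate cultures.

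All contig names matched hg38 (44 of 44 and 53 of 53). Coordinates are 1-based. Transcripts came from GENCODE version 44, with 1 transcript with the longest CDS per gene. ZBED1, annotated on X and Y, counted as 2 genes. The CDS end excludes the stop codon. Members in exons of more than 1 gene were 8.28% and 8.77%. Motifs were searched on the strand of the gene along the transcript, and wherever GGAC is counted, a window is 50 nt on each side. Shares have 95% Wilson intervals and densities exact Poisson intervals. Shared peaks and GGAC were compared with Fisher's exact tests, adjusted over 12 tests. The rest is descriptive.

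The members, gene lists and comparisons were chosen with earlier results of these data known. Named genes were the 15 whose member pair had the highest fold enrichment as a geometric mean over both lists, the 5 whose pairs lay farthest from the CDS end, the 5 with most members, every member gene of the chromatin, Wnt and Notch, and cell cycle lists, and the 2 strongest of each family list. A gene that this rule names is not reported here. Reading frames, spacing, the split by zinc fingers and internal exon densities were added after the data were seen. Alternatives were stricter q (0.01 and 1e-05) or fold enrichment (5 or more) in both lists, other distances to the CDS end, Ensembl canonical transcripts, peak midpoints, summits in 1 gene, 1 peak per gene, other overlaps and windows, and each list alone. Scripts were tested on planted positions. Python 3.11.15, numpy 2.4.6, scipy 1.17.1, pysam 0.24.0 and matplotlib 3.10.9 were used.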

Additional observations from a re-analysis of the deposited data

How the results depend on the processing

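No paired analysis was possible because input peak lists were not used here, and no IP value has an input value of the same number. Over 23 results, 244 alternatives were computed, of which 188 kept the direction and the side of the threshold of a test, stayed within the interval of a share or ratio or the quartiles of a median, or stayed within 1.5 times a count, 24 moved, 13 reversed, 12 came to pass the test and 7 no longer passed it. Where no setting of its own shows the cause, the cause was not tested. The lists do not give depth. With each list taken alone, genes with a member numbered 1128 to 1253, the share nearer the CDS end was 38.9% to 41.5% and the density ratio at the junction 0.0936 to 0.131.

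Members over 400 nt before the CDS end numbered 909 in replicate 2, in 912 genes of either list, and 916 members of replicate 2 had a fold enrichment of 5 or more. The share nearer the CDS end became 52.5% from 100 nt, 28.0% from 400 nt and 53.7% with midpoints. The density ratio at the junction became 0.0828 with q of 1e-05 or less and 0.0608 with fold enrichment of 5 or more. The share found again became 69.2% and 79.1% (replicates 1 and 2) with an overlap of 50% of both peaks, 64.1% and 73.1% with summits within 100 bp, 71.1% and 92.1% with fold enrichment of 5 or more, and 84.9% with 1 peak per gene in replicate 1. The share with GGAC became 26.7% and 29.0% within 25 nt, 65.6% and 68.0% within 100 nt, 46.3% and 51.1% with fold enrichment of 5 or more, 37.9% and 39.7% at midpoints, and 46.9% from 100 nt before the CDS end in replicate 1.

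Differences are in percentage points, members minus class, with adjusted p of Fisher's exact test. For shared peaks against long internal exons in replicate 1, it was -2.97 (0.0622) with summits within 100 bp, 3.76 (0.00778) with q of 1e-05 or less, 13.7 (6.01e-14) with fold enrichment of 5 or more, -0.42 (0.831) from 400 nt and 3.08 (0.0415) without zinc finger genes. In replicate 2 it was -0.91 (0.55) with 50% overlap, -4.76 (0.00141) with summits within 100 bp, 3.43 (0.0145) with fold enrichment of 5 or more, -0.14 (0.831) from 400 nt and -0.36 (0.661) with 1 peak per gene. Against short internal exons in replicate 2 it was 1.26 (0.55) with 50% overlap and -9.87 (9.88e-07) with summits within 100 bp. Against the stop codon in replicate 1 it was 2.25 (0.195) with 50% overlap and -2.42 (0.117) with summits within 100 bp, and in replicate 2 it was -7.55 (2.94e-09), -14.0 (1.15e-26), 2.23 (0.114) with fold enrichment of 5 or more and 0.38 (0.668) without zinc finger genes.

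For GGAC against long internal exons in replicate 1, the difference was -2.26 (0.199) within 25 nt, -2.92 (0.0672) from 100 nt before the CDS end and -3.61 (0.0539) without zinc finger genes. In replicate 2 it was 0.030 (1) within 25 nt, -4.00 (0.0133) within 100 nt, -5.22 (0.00216) at midpoints, -4.16 (0.0469) with 1 peak per gene and 0.80 (0.721) without zinc finger genes. Against short internal exons in replicate 1 it was -3.04 (0.0756) within 25 nt and -3.91 (0.136) with fold enrichment of 5 or more, and in replicate 2 it was -8.24 (0.000138) within 100 nt, -6.04 (0.0349) from 400 nt, -12.3 (1.56e-07) at midpoints and 0.43 (0.884) without zinc finger genes. The alternative without zinc finger genes was chosen after seeing the data.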
